A study of Arundo donax with 12 samples.

Results

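Roots and leaves of cadmium-treated plants were compared directly in giant reed (Arundo donax), a perennial rhizomatous grass grown for biomass. The comparison used the root (Cd_R) and leaf (Cd_L) libraries of cadmium-treated plants, 6 of the 12 RNA-seq libraries of the study, with 3 biological replicates per organ. All plants belonged to the G10 ecotype, were raised from stem nodes in pots of clay soil in the open air from May, and were sampled at the end of July. Treated pots received cadmium nitrate at 4 mg/kg, and the control pots that gave the other 6 libraries (CK_R and CK_L) received ammonium nitrate so that the nitrogen supply was balanced. The design describes 6 pots in all, so that a root and a leaf library may come from one pot, but the labels do not state which of them do. The organs differ in their cells and functions, so each value below is an organ difference measured in treated plants, and the organ difference of the controls is given beside it rather than subtracted. In bulk tissue, fewer cells of one type and less RNA per cell cannot be told apart.

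Roots are the organ that meets soil cadmium first. They take up nitrate, phosphate and metal ions through membrane transporters, and cadmium, which has no known role in plants, enters through carriers meant for essential metals such as iron and manganese. Inside the cell the metal can be bound by thiol peptides and moved into the vacuole, while enzymes such as catalase, superoxide dismutase and ascorbate peroxidase remove the reactive oxygen species (ROS) that accompany it. The cell wall also binds cadmium, mainly through the free carboxyl groups of pectin.

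The expression unit was the unigene, a cluster of transcripts assembled de novo without a genome, and its expected count in each library. No genome position can be given for these unigenes. Primers for quantitative RT-PCR exist for some of them, but were not matched to unigene sequences here. A few pairs are shown as the study assigned them, for unigenes described here with their counts. These are the pair of unigenes measured in treated leaf and root, a xylanase unigene with a large organ difference, and the reference gene.
Cluster-14691.10370, annotated GQ55, forward: ggccttcaccacctctcaag
Cluster-14691.10370, annotated GQ55, reverse: aacagtggccccgagaaatc
Cluster-14691.31660, annotated BAE44, forward: agtttgatggtgatgagccgc
Cluster-14691.31660, annotated BAE44, reverse: gccactccaggtgcttcaac
Cluster-14691.49288, annotated xylanase, forward: atccacgtcaggttctacgg
Cluster-14691.49288, annotated xylanase, reverse: gggatcacgccgtagtagag
Cluster-14691.35187, cyclin dependent kinase, forward: catacgggcaagtgttcatgg
Cluster-14691.35187, cyclin dependent kinase, reverse: tccttgagctggatgacgttc

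The 6 cadmium libraries held between 22157170 (Cd_R replicate 2) and 25460494 (Cd_L replicate 2) counts. Within an organ, log2 CPM (counts per 1000000 counts) correlated at 0.949 to 0.965 between leaf libraries. Cd_R replicate 1 stood apart from the other roots, with correlations of 0.903 and 0.905 against 0.963 between replicates 2 and 3, and with 105247 unigenes counted against 85647 and 87003. The common biological coefficient of variation was 31.7% for the leaves and 41.5% for the roots, and 26.3% for the roots without replicate 1. Counts of calls and several fold changes are also given without this library.

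A large part of the transcriptome differed between the organs of treated plants. Of 54423 unigenes tested with edgeR, 12525 (23.0%) were higher in root and 9718 (17.9%) were higher in leaf, at an adjusted p of at most 0.05 and a difference of at least 2-fold. The median log2 fold change over all tested unigenes was 0.05, with quartiles of -0.78 and 1.14, where positive values mean higher in root. Another 32180 unigenes (59.1%) were not called, and 3816 of these differed by 2-fold or more without passing the test. Scaling by library totals alone moved the median to 0.59 and the share of calls that were higher in root from 56.3% to 73.3%.

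**Figure D1:**
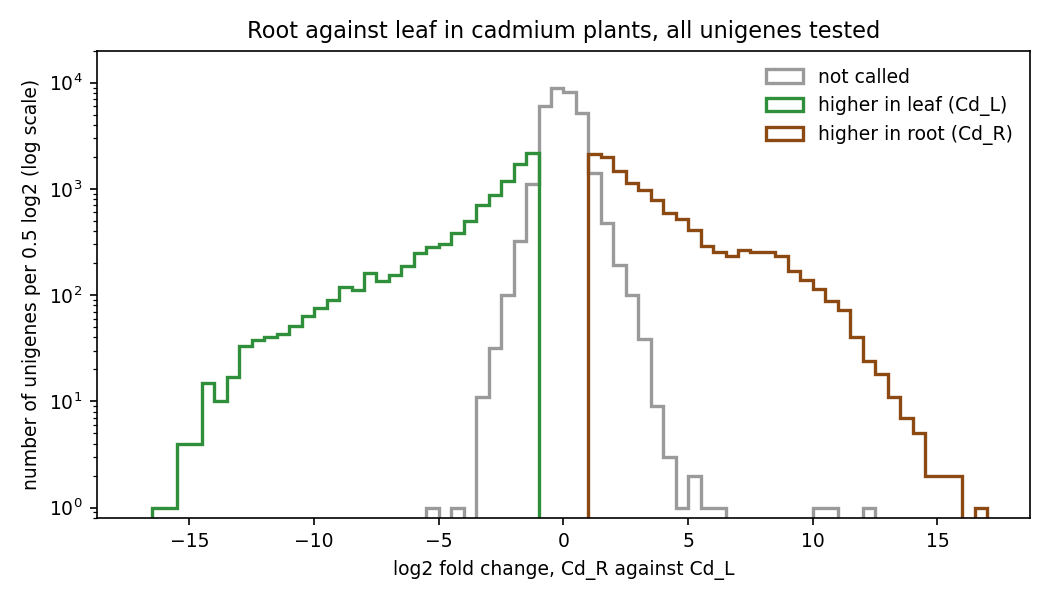
Number of unigenes per bin of 0.5 (y axis, log scale) by log2 fold change of Cd_R vs Cd_L (x axis) for the 54423 tested unigenes, as outlines for unigenes higher in root (12525), higher in leaf (9718) and not called (32180). Both called outlines extend to differences beyond 256-fold, where they hold 1182 unigenes on the root side and 718 on the leaf side.

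Among the called unigenes, fitted differences were larger on the root side. The median size of the difference was 2.77 on the log2 scale among the unigenes higher in root and 2.40 among those higher in leaf. At least 16-fold differences were found for 4010 (32.0%) of the former and 2581 (26.6%) of the latter, and at least 256-fold differences for 1182 (9.44%) and 718 (7.39%). Among the called unigenes, 1305 (10.4%) of those higher in root had no count in any cadmium leaf library, against 406 (4.18%) of those higher in leaf with no count in any cadmium root library. Such unigenes pass the filter only through the organ where they are counted. Nearly all that were tested were called (1305 of 1308 and 406 of 406), so these shares are no separate evidence of larger differences. Their fitted fold changes rest on no counts in the lower organ.

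Leaf counts were concentrated in fewer unigenes than root counts. Unigenes higher in leaf held 52.9% to 57.0% of the counts of the leaf libraries and 7.55% to 8.81% of those of the root libraries. Unigenes higher in root held 28.7%, 37.5% and 37.4% of the counts in Cd_R replicates 1, 2 and 3, and 4.66% to 5.10% in leaf. The median level in the organ where a unigene was higher, not corrected for length, was 9.55 CPM for leaf and 4.99 CPM for root. As a measure of evenness, the number of most abundant unigenes that together hold 50% of a library's counts was 3349, 2516 and 2313 in Cd_R and 1136, 1193 and 768 in Cd_L. Every root library needed more unigenes than any leaf library, with a difference of 1694 between the means. The exact two-sided permutation test gave p = 0.1, the smallest that 3 against 3 libraries allow. The corresponding means in control plants were 2294 for CK_R and 881 for CK_L.

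The 2 called unigenes with the highest CPM in each organ, among those whose organs did not overlap, differed by very unequal amounts. In root, Cluster-14691.16304 stood at 3253, 7302 and 5983 CPM in the 3 root libraries and at 1.65, 0.379 and 0.374 CPM in leaf, a log2 fold change of 12.75 ± 1.01, with the SE after the sign (edgeR adjusted p = 0.000176). In the opposite direction, Cluster-14691.48808 stood at 10158, 9161 and 7144 CPM in leaf and at 1.26, 2.15 and 0.635 CPM in root, a log2 fold change of -12.66 ± 0.81 (adjusted p = 8.83e-05). Both were close to 0 in every library of the lower organ. The other unigene of each pair was clearly counted in both organs. Cluster-14691.47318, the higher of the root pair, reached 9549, 10118 and 7864 CPM in root and 1828, 3092 and 3084 CPM in leaf (1.797 ± 0.44, adjusted p = 0.0143). In the opposite direction, Cluster-14691.48328 reached 8636, 7189 and 8820 CPM in leaf and 166, 1059 and 838 CPM in root (-3.56 ± 0.73, adjusted p = 0.00690), and root replicate 1 was the lowest of the 3 roots. The sources used here give these 4 unigenes no name.

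The organ difference of control plants was of similar extent. In CK_R vs CK_L, 12060 (22.3%) of 54084 tested unigenes were higher in root and 9112 (16.8%) were higher in leaf. Of the 12525 unigenes higher in cadmium root, 11558 were also tested in controls, and 11491 of these (99.4%) had the same sign there, 10582 of them with at least a 2-fold difference. The same held for 9284 of 9342 (99.4%) unigenes higher in cadmium leaf. Opposite differences of 2-fold or more were found for 8 and 3 unigenes. A direct test of the organ difference of treated plants against that of controls called none of 61242 unigenes with edgeR (lowest adjusted p = 0.936), with 1941 at an unadjusted p of at most 0.05. That number is under the share of 0.05 of all tests that would lie there if no unigene differed. DESeq2 called 10.

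More unigenes were counted in only one organ in root than in leaf, and 1 root library decided the size of that gap. At a summed count of at least 10 in one organ and none in the other, 16157 unigenes were counted only in cadmium roots and 1526 only in cadmium leaves. The root-only set was held unevenly by the libraries, at 6.17%, 1.49% and 1.49% of the counts of Cd_R replicates 1, 2 and 3. Of these unigenes, 9163 (56.7%) were counted in Cd_R replicate 1 alone, against 10 in replicate 2 alone and 24 in replicate 3 alone. Without Cd_R replicate 1, 3856 unigenes were root-only and 2217 were leaf-only.

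**Figure D2:**
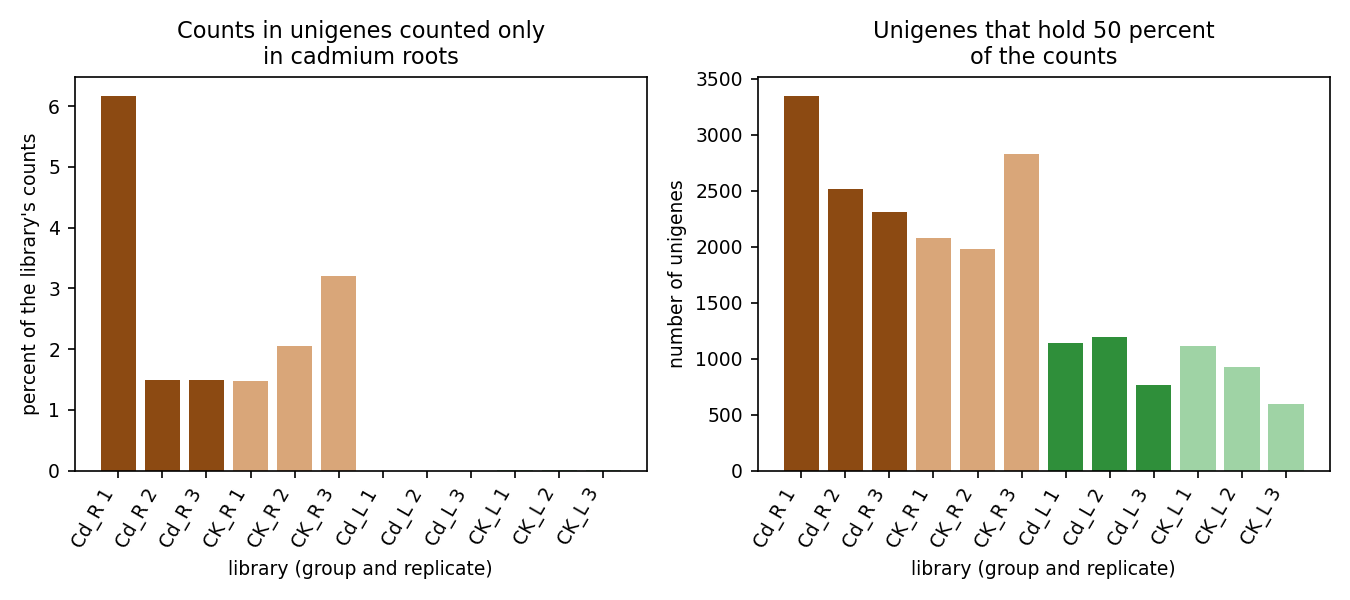
Left panel, percent of each library's counts in the unigenes counted only in cadmium roots, and right panel, number of unigenes that hold 50% of each library's counts, with one bar for each of the 12 libraries (dark for cadmium, light for control, brown for root, green for leaf). Cd_R replicate 1 is the highest library in both panels, at 6.17% and 3349 unigenes.

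The 9163 unigenes of that single library had a median of 29 counts, took up 3.59% of its counts, and none entered the test. In control roots, 1939 (21.2%) of them were counted in CK_R replicate 3, 553 (6.04%) in replicate 1 and 103 (1.12%) in replicate 2, whereas at most 14 were counted in any control leaf library. CK_R replicate 3 also held most single-library transcripts among controls, with 4967 of 13375 unigenes found only in control roots. By contrast, 4441 root-only unigenes were counted in every cadmium root library, with 1.54%, 1.46% and 1.41% of the counts, and 4394 of them (98.9%) were also counted in control roots. Of the 1526 leaf-only unigenes, 1279 were counted in every cadmium leaf library and 1502 (98.4%) were also counted in control leaves.

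The assembly IDs also set libraries apart. One group of unigenes, Cluster-14691, held 83766 unigenes, of which 52546 (62.7%) were tested, and all other clusters together held 42902, of which 1877 (4.38%) were tested. The other clusters held 1.96% of the counts of Cd_R replicate 1 and 1.22% of those of CK_R replicate 3, against 0.44% to 0.48% in the remaining root libraries and 0.25% to 0.32% in leaf. They made up 8864 (54.9%) of the root-only and 684 (44.8%) of the leaf-only unigenes. The part of these libraries' extra transcripts in the organ comparison was not tested beyond the values without Cd_R replicate 1.

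Gene groups came from the study's own tables. The study chose them with DESeq2 as differentially expressed in Cd_R vs Cd_L on these libraries, after removing unigenes that also differed between control organs. Neither their direction nor the share that is called, by edgeR or by DESeq2, is therefore independent evidence. That removal also means that few members are called in controls. In the direct edgeR test against controls none of the members was called. A call in treated plants without one in controls therefore does not show that the organ difference changed with treatment. Counts below are read against the 23.0% and 17.9% of all tested unigenes that were called. Among all called unigenes, 12358 of 12525 higher in root and 9673 of 9718 higher in leaf had organs that did not overlap. A lack of overlap in a called unigene is therefore no evidence beyond its call.

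All 4 nitrogen unigenes were higher in root, with a median log2 fold change of 2.61 against 0.05 over all tested unigenes. Nitrate reductase, the enzyme that reduces nitrate to nitrite, was represented by Cluster-14691.36103, with 133, 27.3 and 34.7 CPM in Cd_R and 4.96, 2.19 and 4.71 CPM in Cd_L (4.06 ± 0.72, adjusted p = 0.00379). A second nitrate reductase unigene, Cluster-14691.46130, had 149, 100.5 and 142 CPM in root and 47.1, 39.6 and 67.8 CPM in leaf (1.36 ± 0.28, adjusted p = 0.00659). Organs did not overlap for either. NRT2.5, a high-affinity nitrate transporter (Cluster-14691.17907), had 21.7, 2.47 and 4.22 CPM in root and 1.04, 0.757 and 0.214 CPM in leaf (3.81 ± 0.97, adjusted p = 0.0160), again led by replicate 1 of the roots. An aspartate aminotransferase, which moves amino groups between amino acids (Cluster-14691.70929), had overlapping organs, with 9.88, 5.19 and 2.87 CPM against 2.97, 1.599 and 2.25 CPM (1.41 ± 0.49, adjusted p = 0.0494). Without Cd_R replicate 1 the log2 fold changes were 3.04 for Cluster-14691.36103 and 2.34 for NRT2.5. The NRT2.5 call was lost without Cd_L replicate 2 (adjusted p = 0.0600) or 3 (0.0580), and the aminotransferase call without any library but Cd_R replicate 3 (0.0752 to 0.150).

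Phosphate genes lay on the same side. Of 6 unigenes, 5 were tested and all 5 were higher in root (median 2.09). The phosphate transporter PHT1;4 (Cluster-14691.45899) had 144, 41.6 and 46.1 CPM in Cd_R and 21.5, 19.1 and 14.5 CPM in Cd_L (2.09 ± 0.51, adjusted p = 0.0138). PHT1;7 (Cluster-14691.51441) had 21.5, 6.74 and 7.09 CPM against 2.55, 4.46 and 0.909 CPM (2.16 ± 0.68, adjusted p = 0.0351), and another PHT1 transporter, Cluster-14691.52580, had 38.4, 14.3 and 21.4 CPM against 7.36, 10.9 and 6.79 CPM (1.58 ± 0.39, adjusted p = 0.0149). For each transporter Cd_R replicate 1 was the highest library and the organs did not overlap. SPX proteins sense phosphate status through inositol pyrophosphates. SPX1 (Cluster-14691.54581) had 44.3, 47.1 and 16.7 CPM in root and 14.1, 14.5 and 10.2 CPM in leaf (1.49 ± 0.40, adjusted p = 0.0195), and both remaining SPX unigenes were without a count in cadmium leaf. SPX3 (Cluster-14691.81540) had 1.06, 0.752 and 0.635 CPM in root, at least 17.4-fold above a floor of 3 counts over the leaf libraries, and was called. The other (Cluster-14691.81539), at 0.920, 0.824 and 0.261 CPM, was at least 14.4-fold higher and was not tested. Without Cd_R replicate 1 the log2 fold change of PHT1;4 was 1.30 and that of PHT1;7 was 1.41. Only the SPX3 call was kept whichever cadmium library was left out. SPX3 had no count in cadmium leaf, and 1305 of 1308 tested unigenes counted only in cadmium roots were called. Its kept call is therefore no added evidence and does not rank it above the transporters. PHT1;4 was lost without Cd_L replicate 2 (0.0520) or 3 (0.0601), PHT1;7 without Cd_L replicate 1 (0.106) or 3 (0.0842) or Cd_R replicate 1 (0.0688), Cluster-14691.52580 without Cd_L replicate 1 (0.0624) or 3 (0.0634), and SPX1 without any leaf library (0.0555 to 0.0778) or without Cd_R replicate 2 (0.0593), all as edgeR adjusted p.

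Iron transport differed from this pattern. VIT1 (Cluster-14691.23657), a carrier that loads iron into the vacuole, had 5.38, 3.91 and 4.49 CPM in leaf and 0.341, 1.07 and 1.05 CPM in root (-2.47 ± 0.46, adjusted p = 0.00446), with no overlap. Its levels in controls were 2.18, 4.33 and 2.89 CPM in leaf and 1.81, 1.88 and 0.764 CPM in root (-1.03 ± 0.48, adjusted p = 0.126). A YSL-type unigene (Cluster-14691.15172), from the family that carries metal-nicotianamine complexes, had 5.14, 7.32 and 3.37 CPM in leaf and 2.76, 2.08 and 2.31 CPM in root (-1.13 ± 0.34, adjusted p = 0.0296). Its call was lost without Cd_L replicate 1 or 2 or Cd_R replicate 2 or 3 (0.0693 to 0.0999).

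The 2 heavy metal transporters were scarce and lay on opposite sides. Nramp1 (Cluster-27204.0), known in rice as a plasma membrane importer of cadmium and other metals, had 0.613, 0.537 and 0.635 CPM in root and 0.0944, 0 and 0.0535 CPM in leaf. The ratio was 12.6, with a 95% interval of 4.08 to 63.3 that covers counting error only, and the unigene was called (adjusted p = 0.00545). HMA3 (Cluster-14691.35424), which in rice loads cadmium into root vacuoles, was near 0 in root, at 0, 0.0358 and 0.0747 CPM, and stood at 0.283, 0.589 and 0.588 CPM in leaf. That is a ratio of 13.6 (4.26 to 69.7) in favour of leaf, and counts were too low for the test. It was tested and called higher in leaf without Cd_L replicate 1 or any of the root libraries. Neither unigene overlapped between organs.

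ROS-related transcripts were held mainly by one root library. All 6 unigenes had more than 50% of their root level in Cd_R replicate 1, 5 had no count in cadmium leaf, and 1 was tested and called. Most unigenes counted only in cadmium roots shared this trait, 12574 of 16157, so it is not particular to this group. DESeq2, with which the study chose the group, called all 6 higher in root, and edgeR without the expression filter called 2. With the filter, edgeR called 3 without Cd_R replicate 2 and none without Cd_L replicate 2 or 3. The unigene tested, ascorbate peroxidase 3 (Cluster-14691.24413), which uses ascorbate to reduce hydrogen peroxide, had 80.2, 21.1 and 8.66 CPM in root and 4.58, 1.64 and 3.797 CPM in leaf. Its log2 fold change was 3.47 ± 0.86 (adjusted p = 0.0142), with 2.22 without Cd_R replicate 1, and the call was lost without Cd_L replicate 2 (0.0575) or 3 (0.0528). In controls it had 8.38, 3.52 and 2.46 CPM in root and 2.83, 5.68 and 2.95 CPM in leaf, which overlap.

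The other 5 showed how uneven the roots were. A glutathione S-transferase (Cluster-14691.9539), from the family that couples glutathione to toxic compounds, had 17.4, 0.215 and 1.49 CPM in Cd_R. Glutaredoxin-C5 (Cluster-14691.81808), a thiol redox protein, had 3.17, 0.358 and 0.336 CPM. Superoxide dismutase (Cluster-14691.9595) had 2.39, 0.179 and 0.261 CPM. A unigene that the study annotated as catalase (Cluster-10504.0) had 2.01, 0.0717 and 0.0747 CPM. Its Arabidopsis match had the lowest identity among the unigenes of the study's main list, so the name is uncertain. In each case replicate 1 was far above replicates 2 and 3. NADPH oxidase 1 (Cluster-14691.12641), which makes superoxide at the plasma membrane, had 3.24, 0 and 0.411 CPM in Cd_R and reached 55.9 CPM in CK_R replicate 3, against 1.31 and 0 CPM in the other control roots. The part of these libraries in the result was not tested.

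The 4 polyamine unigenes grouped here were all called higher in leaf, with a median log2 fold change of -1.498. The study also placed Cluster-14691.6139, a putative lysine decarboxylase, among polyamine genes. It is described below with cytokinin and was not called (4.19 ± 1.49, adjusted p = 0.0536). Agmatine iminohydrolase acts on the route from arginine to putrescine. The clearest of its 3 unigenes, Cluster-14691.48898, had 17.4, 15.4 and 19.7 CPM in Cd_L and 1.70, 1.83 and 1.61 CPM in Cd_R (-3.33 ± 0.21, adjusted p = 8.48e-05), with tight replicates in both organs. Cluster-14691.45377 had 33.9, 41.9 and 37.9 CPM in leaf and 21.9, 6.66 and 11.8 CPM in root (-1.48 ± 0.41, adjusted p = 0.0224). Cluster-14691.45378 had 91.5, 88.6 and 98.9 CPM in leaf and 51.7, 17.7 and 27.1 CPM in root (-1.52 ± 0.38, adjusted p = 0.0155). Both were highest in replicate 1 among the roots but stayed below every leaf library. A polyamine oxidase (Cluster-14691.48693), which degrades polyamines and releases hydrogen peroxide, had 186, 238 and 156 CPM in leaf and 75.7, 54.0 and 77.4 CPM in root (-1.47 ± 0.25, adjusted p = 0.00348). In controls its organs were closer, with 173, 196 and 147 CPM in leaf and 157, 119.6 and 121 CPM in root (-0.34 ± 0.27, adjusted p = 0.347). With scaling by library totals, 1 of the 4 was called. Cluster-14691.45377 was also lost without Cd_L replicate 2 or 3 or Cd_R replicate 3 (0.0585 to 0.0694), and Cluster-14691.45378 without Cd_R replicate 3 (0.0512).

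**Figure D3:**
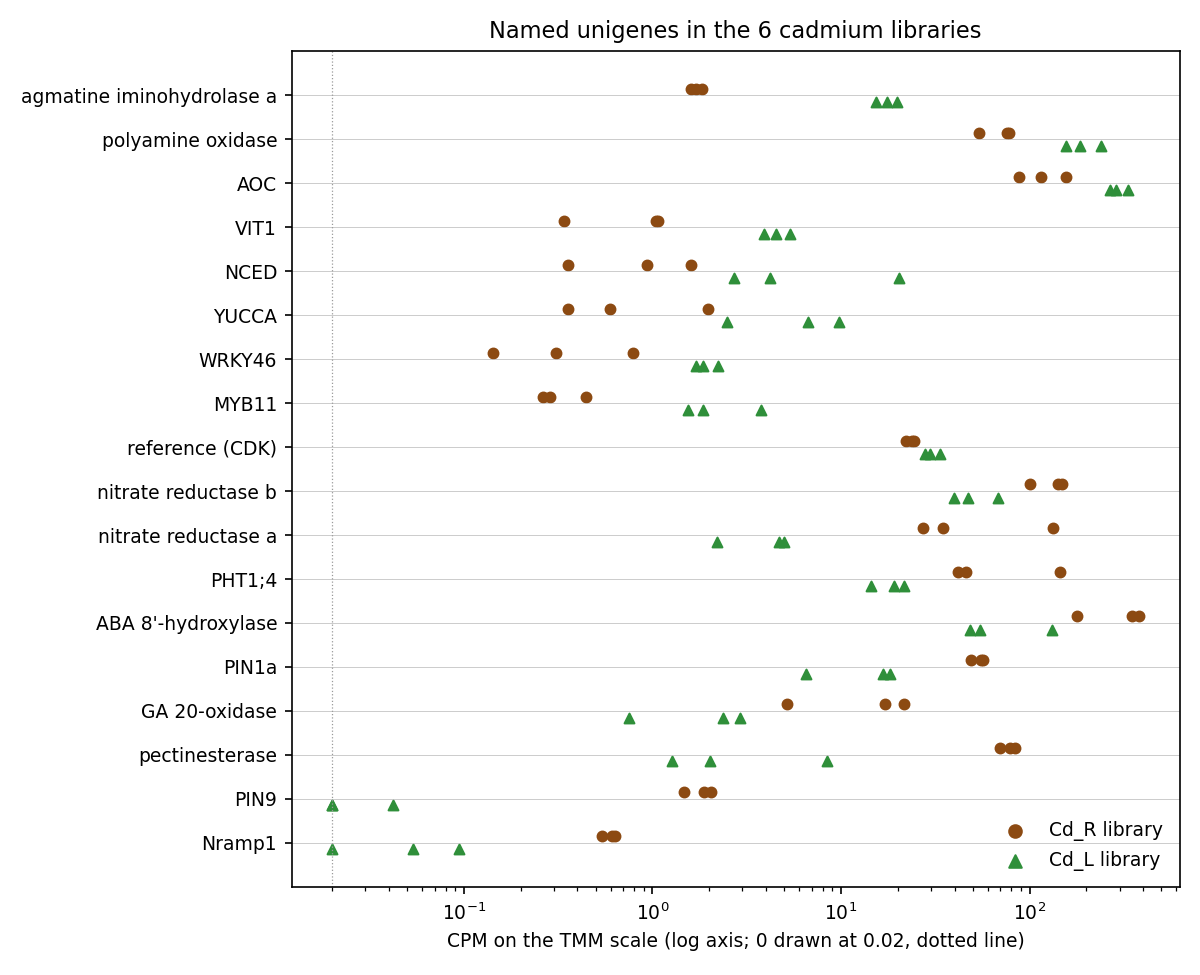
CPM (x axis, log scale, with 0 drawn at the dotted line) of 18 named unigenes in the 3 Cd_R libraries (circles) and the 3 Cd_L libraries (triangles), one symbol per library. Agmatine iminohydrolase, polyamine oxidase and VIT1 lie higher in leaf, nitrate reductase and the unigene labelled pectinesterase higher in root, and the reference gene lies close together in both.

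Hormone genes went both ways. For abscisic acid (ABA), 2 of 5 unigenes were higher in root and 2 higher in leaf (median -1.13). NCED, the enzyme for the committed step of ABA synthesis (Cluster-14691.43609), had 20.4, 2.69 and 4.22 CPM in leaf and 1.601, 0.358 and 0.933 CPM in root (-3.21 ± 0.90, adjusted p = 0.0235). ABA3, a molybdenum cofactor sulfurase that activates the last enzyme of the route (Cluster-14691.60538), had 19.8, 22.5 and 16.6 CPM in leaf and 13.9, 5.77 and 7.02 CPM in root (-1.13 ± 0.35, adjusted p = 0.0348). Synthesis genes thus lay on the leaf side. ABA 8'-hydroxylase, which starts ABA breakdown (Cluster-14691.50813), lay on the root side with 349.9, 382 and 179 CPM in root and 48.2, 54.8 and 131 CPM in leaf (1.98 ± 0.48, adjusted p = 0.0134). The ubiquitin ligase RHA2 (Cluster-14691.16178), a positive regulator of ABA signalling in Arabidopsis, had 13.6, 6.63 and 4.59 CPM in root and 3.63, 2.61 and 3.74 CPM in leaf (1.33 ± 0.43, adjusted p = 0.0384). The phosphatase PP2C (Cluster-14691.49163), a repressor of ABA signalling, had 38.3, 16.98 and 13.4 CPM in root and 72.8, 51.2 and 39.7 CPM in leaf and was not called (-1.24 ± 0.44, adjusted p = 0.0523), but passed without Cd_R replicate 1 (-1.79, 0.00286). None of the 4 calls was kept whichever library was left out. NCED was lost without Cd_L replicate 1 (-1.84) or Cd_R replicate 2 or 3 (0.0667 to 0.0718), ABA3 without any library but Cd_R replicate 1 (0.0588 to 0.102), the 8'-hydroxylase without Cd_L replicate 1 (0.0516) or 2 (0.0553), and RHA2 without any leaf library or Cd_R replicate 1 (0.0541 to 0.124).

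Auxin carriers were split between the organs. Of 6 auxin unigenes, 3 were higher in root, 2 higher in leaf and 1 not tested. PIN proteins export auxin from cells. PIN1a (Cluster-14691.31627) had 55.2, 56.4 and 48.9 CPM in root and 18.2, 6.48 and 16.6 CPM in leaf (1.97 ± 0.38, adjusted p = 0.00533), and PIN9 (Cluster-14691.13200) had 1.87, 1.47 and 2.05 CPM in root with a single count in leaf (ratio 114, interval 20.2 to 4547, adjusted p = 0.000586). Another PIN unigene, Cluster-14691.35301, was higher in leaf, at 13.3, 7.82 and 12.7 CPM against 1.47, 4.84 and 4.40 CPM (-1.64 ± 0.46, adjusted p = 0.0239). The auxin synthesis enzyme YUCCA (Cluster-14691.49474) was also higher in leaf, at 9.72, 2.48 and 6.68 CPM against 1.98, 0.358 and 0.597 CPM (-2.66 ± 0.74, adjusted p = 0.0233). Both leaf calls depended on single libraries: the PIN unigene was lost without Cd_L replicate 1 or 3 or Cd_R replicate 3 (0.0509 to 0.0726), and YUCCA without Cd_L replicate 1 or 3 or Cd_R replicate 2 or 3 (0.0579 to 0.0770). The repressor IAA9-like (Cluster-14691.15466) had 2.08, 3.73 and 4.85 CPM in root and 1.23, 0.757 and 0.802 CPM in leaf (1.94 ± 0.42, adjusted p = 0.00810). A PILS carrier, from a family that moves auxin into the endoplasmic reticulum (Cluster-14691.13007), was not tested and had 0.136, 5.45 and 18.2 CPM in root, with replicate 1 far below the others, and 1 count in leaf (ratio 487, interval 87.1 to 19265).

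Cytokinin and gibberellin unigenes were on the root side. For cytokinin, 4 of 5 were higher in root and none in leaf (median 1.53). Type-A response regulators are induced by cytokinin and dampen its signal. Cluster-14691.55777 had 22.4, 10.7 and 12.2 CPM in root and 5.71, 5.22 and 4.92 CPM in leaf (1.53 ± 0.32, adjusted p = 0.00705), and Cluster-14691.16490 had 4.94, 2.83 and 3.70 CPM against 0.802, 0.757 and 1.497 CPM (1.93 ± 0.39, adjusted p = 0.00663). LOG enzymes release active cytokinin. Cluster-14691.40808 had 33.5, 18.9 and 21.6 CPM in root and 9.72, 11.7 and 10.96 CPM in leaf (1.21 ± 0.26, adjusted p = 0.00782), falling to 0.96 without Cd_R replicate 1. A second, Cluster-14691.6139, which the study's tables also name a putative lysine decarboxylase, had 7.02, 0.358 and 0.821 CPM in root and 0, 0.0421 and 0.428 CPM in leaf. Its organs overlapped and it was not called (4.19 ± 1.49, adjusted p = 0.0536), though it passed without Cd_R replicate 2 (0.0345). A cytokinin glucosyltransferase (Cluster-14691.64014), which inactivates the hormone, had 16.6, 6.41 and 16.2 CPM in root and 6.66, 5.01 and 4.22 CPM in leaf (1.32 ± 0.40, adjusted p = 0.0308), with overlap, and its call was lost without any library but Cd_R replicate 2 (0.0512 to 0.106).

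For gibberellin, all 3 unigenes were higher in root (median 2.78). The synthesis enzyme GA 20-oxidase (Cluster-14691.11833) had 5.18, 21.6 and 17.02 CPM in root and 0.755, 2.90 and 2.35 CPM in leaf (2.87 ± 0.66, adjusted p = 0.0108). ELA, a cytochrome P450 that inactivates gibberellin (Cluster-14691.77995), had 5.52, 4.30 and 2.28 CPM in root and 0.897, 0.337 and 0.535 CPM in leaf (2.78 ± 0.50, adjusted p = 0.00403). Enzymes of both synthesis and inactivation were therefore higher in the same organ. GID2, an F-box protein needed for gibberellin signalling (Cluster-14691.29389), had 2.73, 2.11 and 2.46 CPM against 1.46, 0.968 and 1.07 CPM (1.07 ± 0.31, adjusted p = 0.0259) and was lost without Cd_L replicate 2 or 3 or Cd_R replicate 3 (0.0665 to 0.0827).

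Ethylene genes were mostly higher in root, with 5 of 6 tested unigenes called there and 1 in leaf (median 1.42). ACC oxidase makes ethylene, and its 3 unigenes did not share a direction. Cluster-14691.52687 had 149, 74.2 and 179.6 CPM in leaf and 62.6, 62.1 and 30.3 CPM in root (-1.36 ± 0.41, adjusted p = 0.0314). Cluster-14691.30304 had 31.9, 27.0 and 44.1 CPM in root and 17.6, 10.8 and 21.2 CPM in leaf (1.07 ± 0.31, adjusted p = 0.0255), and Cluster-14691.11710 had 13.7, 1.00 and 3.73 CPM in root and 0.944, 0.463 and 0.481 CPM in leaf (3.29 ± 0.94, adjusted p = 0.0252), or 1.96 without Cd_R replicate 1. Signalling components, from EIN2, the central membrane relay, to the transcription factor EIN3/EIL and EBF1, the F-box protein that degrades it, were higher in root. EIN2 (Cluster-14691.10785) had 1.16, 0.860 and 1.27 CPM against 0.189, 0.210 and 0.481 CPM (1.92 ± 0.47, adjusted p = 0.0136). EIN3/EIL (Cluster-14691.10463) had 2.59, 4.51 and 6.05 CPM against 1.84, 1.01 and 1.18 CPM (1.72 ± 0.41, adjusted p = 0.0130). EBF1 (Cluster-14691.44992) had 124, 74.8 and 64.2 CPM against 31.8, 38.2 and 53.0 CPM (1.11 ± 0.32, adjusted p = 0.0256). ARGOS (Cluster-14691.2106), of a family that lowers ethylene sensitivity in Arabidopsis and maize, was not tested. It had 0.204, 0.860 and 1.42 CPM in root and 2 counts in leaf, at 0.0472, 0 and 0.0535 CPM (ratio 25.8, interval 6.86 to 217). EIN2 was the lowest of the 5 root calls by CPM and was named after its values were seen. Each of the 6 called unigenes lost its call without at least 1 library. EIN3/EIL was lost without Cd_L replicate 2 (0.0514) or 3 (0.0523) and EIN2 without Cd_L replicate 1 (0.0662) or 2 (0.0620). Loss also followed for Cluster-14691.11710 without any leaf library (0.0581 to 0.0919), Cluster-14691.30304 without Cd_L replicate 1 or 2 or Cd_R replicate 3 (0.0642 to 0.0730), Cluster-14691.52687 without Cd_L replicate 1 or 3 or Cd_R replicate 2 or 3 (0.0529 to 0.0977), and EBF1 without Cd_L replicate 1 (0.0982) or 2 (0.0861) or, by its size of 0.82, without Cd_R replicate 1.

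Jasmonic acid synthesis was higher in leaf. Of 7 unigenes for jasmonic acid, salicylic acid and strigolactone, 3 were higher in leaf, 2 higher in root and 2 not tested. Allene oxide cyclase (AOC, Cluster-14691.51153), which sets the stereochemistry of the jasmonate precursor, had 288, 265 and 332 CPM in leaf and 115, 87.7 and 156 CPM in root (-1.29 ± 0.27, adjusted p = 0.00754). In controls AOC overlapped between organs, with 190.4, 546 and 163 CPM in leaf and 497, 378 and 201 CPM in root (0.31 ± 0.56, adjusted p = 0.698). The difference between both organ differences had an unadjusted interaction p of 0.0378 and did not pass adjustment. The ACH thioesterases Cluster-14691.60961 (66.5, 62.3 and 69.4 CPM in leaf, 33.1, 22.3 and 23.7 CPM in root, -1.31 ± 0.21, adjusted p = 0.00259) and Cluster-14691.64123 (22.8, 25.2 and 18.4 CPM against 12.3, 5.05 and 9.82 CPM, -1.27 ± 0.34, adjusted p = 0.0192) were higher in leaf too. The second was lost without Cd_L replicate 1 (0.0555) or 2 (0.0599), and fell under 2-fold (-0.97) without Cd_R replicate 2. With scaling by library totals none of these 3 was called.

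The unigenes grouped under salicylic acid and strigolactone, 1 for each, were on the root side. NPR1 (Cluster-14691.19269), the salicylic acid co-regulator, had 10.1, 7.49 and 7.58 CPM in root and 1.56, 3.70 and 1.93 CPM in leaf (1.81 ± 0.37, adjusted p = 0.00655). SMXL3 (Cluster-14691.77771), of a family that includes the repressors of strigolactone signalling, had 0.613, 0.788 and 0.971 CPM in root and 3 counts in leaf (ratio 16.7, interval 5.46 to 82.9, adjusted p = 0.00771). The untested pair were a 13-lipoxygenase (Cluster-14691.65388), at 154, 0 and 9.09 CPM in leaf and 0 in root, and a JAZ repressor (Cluster-37109.0), at 3.31, 0.107 and 0.411 CPM in root and 0 in leaf. Each was carried by replicate 1 of its organ.

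Signalling peptide transcripts were mostly without counts in cadmium leaf. Of 22 unigenes, 17 had no count in any cadmium leaf library. Among all 126668 unigenes, 16157 had none there at a summed root count of at least 10. The study chose the group for a difference between these libraries, so its larger share is not a separate result. Of 9 that were tested, 8 were higher in root and none in leaf, with a median log2 fold change of 4.28 when unigenes at 0 in leaf are set to their bound. The count of calls moved with the libraries in the fit, to 15 without Cd_R replicate 1, 12 without Cd_L replicate 1 or 3 and 11 without Cd_L replicate 2. DESeq2, with which the study chose the group, called all 22 higher in root, and edgeR without the expression filter called 16. CEP1 (Cluster-14691.82632), a C-terminally encoded peptide of a family that signals nitrogen demand in Arabidopsis, had 0.409, 12.4 and 4.55 CPM in root, at least 121-fold above the leaf floor (adjusted p = 0.0182), and replicate 1 was the lowest root library. The phytosulfokine precursor (Cluster-14691.75189), a growth-promoting sulfated peptide, ran the other way among the roots, with 37.8, 4.59 and 2.80 CPM, and 1.46, 0.210 and 1.55 CPM in leaf (3.84 ± 1.18, adjusted p = 0.0331).

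The phytosulfokine receptors were also higher in root. PSKR2 (Cluster-14691.70969) had 2.83, 6.48 and 5.41 CPM in root and 1.04, 1.72 and 0.856 CPM in leaf (2.03 ± 0.43, adjusted p = 0.00785), and PSKR1 (Cluster-14691.50727) had 20.8, 13.9 and 9.18 CPM in root and 8.31, 3.53 and 7.01 CPM in leaf (1.23 ± 0.41, adjusted p = 0.0435). The HERK-like receptor kinase (Cluster-14691.36401), with 8.11, 32.5 and 33.4 CPM in root and 9.72, 5.22 and 11.4 CPM in leaf, overlapped and was not called (1.503 ± 0.56, adjusted p = 0.0612). The phytosulfokine call was lost without any leaf library (0.0826 to 0.0966) or Cd_R replicate 1 (1.86, 0.0514), and PSKR1 without any library but Cd_R replicate 3 (0.0586 to 0.109).

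Transcription factors were found on both sides. Of 23 unigenes, 16 were tested, with 10 higher in root and 5 higher in leaf (median 2.44). On the root side, bZIP Cluster-14691.13800 had 3.75, 5.70 and 11.01 CPM against 0.330, 0.337 and 0.909 CPM (3.72 ± 0.59, adjusted p = 0.00251), and ERF11 (Cluster-14691.28900), an ethylene response factor, had 3.51, 2.19 and 3.28 CPM against 0.472, 0.799 and 0.374 CPM (2.44 ± 0.41, adjusted p = 0.00298). Both were higher in root in every library. Another bZIP, Cluster-14691.82651, had 1.12, 6.34 and 3.73 CPM against 0.755, 0.210 and 1.12 CPM (2.45 ± 0.77, adjusted p = 0.0361), and a CRF1-related factor (Cluster-14691.17960) had 1.02, 4.16 and 2.69 CPM against 0, 0.126 and 0.428 CPM (3.86 ± 0.95, adjusted p = 0.0140). The first was lost without any library but Cd_R replicate 1 (0.0551 to 0.110) and the second without Cd_L replicate 2 (0.0632).

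The leaf side held 2 MYB factors, a bHLH, a WRKY and an AP2 factor. MYB11 (Cluster-14691.61708), known in Arabidopsis as a regulator of flavonol synthesis, had 3.78, 1.85 and 1.55 CPM in leaf and 0.443, 0.287 and 0.261 CPM in root (-2.82 ± 0.49, adjusted p = 0.00350). RAX2 (Cluster-14691.40443) had 2.22, 1.22 and 2.03 CPM in leaf and 0.307, 0.251 and 0.560 CPM in root (-2.26 ± 0.46, adjusted p = 0.00634). The bHLH unigene (Cluster-14691.57184) had 1.70, 2.48 and 2.73 CPM in leaf and 0.681, 0.287 and 0.485 CPM in root (-2.22 ± 0.42, adjusted p = 0.00516). These 3 calls were kept whichever library was left out. WRKY46 (Cluster-32613.0) had 2.22, 1.85 and 1.71 CPM in leaf and 0.307, 0.143 and 0.784 CPM in root (-2.21 ± 0.58, adjusted p = 0.0185), its call lost without Cd_L replicate 1 (0.0610) or 2 (0.0502). SHN (Cluster-14691.32159), of a family that regulates cutin and wax, had 3.59, 1.35 and 1.07 CPM in leaf and 0.273, 0.502 and 0.336 CPM in root (-2.41 ± 0.58, adjusted p = 0.0129), lost without Cd_R replicate 3 (0.0501). A CRF5-related factor (Cluster-14691.27999) had nearly equal levels, with 0.750, 0.322 and 0.448 CPM in root and 0.566, 0.421 and 0.374 CPM in leaf (0.17 ± 0.45, adjusted p = 0.779), but was higher in root in controls (2.29). The study's main list gives this unigene as higher in treated root than in treated leaf, which these counts do not show. Across the settings its log2 fold change lay between -0.19 and 0.71, and it was called in none, DESeq2 included.

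Cell wall genes were mostly higher in root. Of 18 unigenes, 16 were tested, with 13 higher in root and 2 higher in leaf (median 2.73). Without Cd_L replicate 3, 8 were called higher in root. Cluster-14691.66836 is labelled here as a pectinesterase, an enzyme that removes methyl groups from pectin. The study's main list places it in the invertase and pectin methylesterase inhibitor superfamily, so its activity is uncertain. It had 79.2, 84.1 and 69.2 CPM in Cd_R and 2.03, 1.26 and 8.45 CPM in Cd_L (4.33 ± 0.72, adjusted p = 0.00291). In controls it had 40.0, 75.3 and 31.0 CPM in root and 11.996, 3.93 and 35.6 CPM in leaf, which overlap (1.54 ± 0.74, adjusted p = 0.136). The cadmium roots lay close together, the highest cadmium leaf was replicate 3 (5.55 without it), and the control leaves were scattered. An arabinofuranosidase (Cluster-14691.51009), which trims arabinose side chains, had 52.3, 88.2 and 74.1 CPM in root and 28.6, 30.5 and 26.2 CPM in leaf (1.35 ± 0.23, adjusted p = 0.00346). A coniferin glucosidase (Cluster-14691.48618), which releases a lignin precursor, had 102, 23.6 and 93.4 CPM in root and 17.4, 12.8 and 22.8 CPM in leaf (2.06 ± 0.54, adjusted p = 0.0182). A galacturonosyltransferase (Cluster-14691.32672), which builds pectin, had 37.3, 20.1 and 44.8 CPM in root and 19.7, 5.81 and 13.3 CPM in leaf (1.42 ± 0.48, adjusted p = 0.0470).

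The leaf side held SHN, described above, and a pectin acetylesterase (Cluster-14691.47175), with 8.64, 8.50 and 7.75 CPM in leaf and 4.23, 3.08 and 4.67 CPM in root (-1.04 ± 0.23, adjusted p = 0.00995), which fell below 2-fold (-0.86) without Cd_R replicate 2. A second coniferin glucosidase (Cluster-14691.24845) overlapped and was not called (2.86 ± 1.06, adjusted p = 0.0623), with 14.4, 0.394 and 4.82 CPM in root and 0.944, 0.715 and 1.07 CPM in leaf. Without Cd_L replicate 1 or 2, the call of Cluster-14691.48618 was lost (0.0658 and 0.0729), and Cluster-14691.32672 was lost without Cd_L replicate 2 or 3 or Cd_R replicate 1 or 3 (0.0562 to 0.121). The 2 untested members were counted mainly in root: expansin-A11 (Cluster-14691.76733), a wall-loosening protein, had 0.204, 0.931 and 4.14 CPM there and 1 count in leaf, and pectin methylesterase 61 (Cluster-20197.0) had 0.579, 0.143 and 0.299 CPM there and none in leaf.

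**Figure D4:**
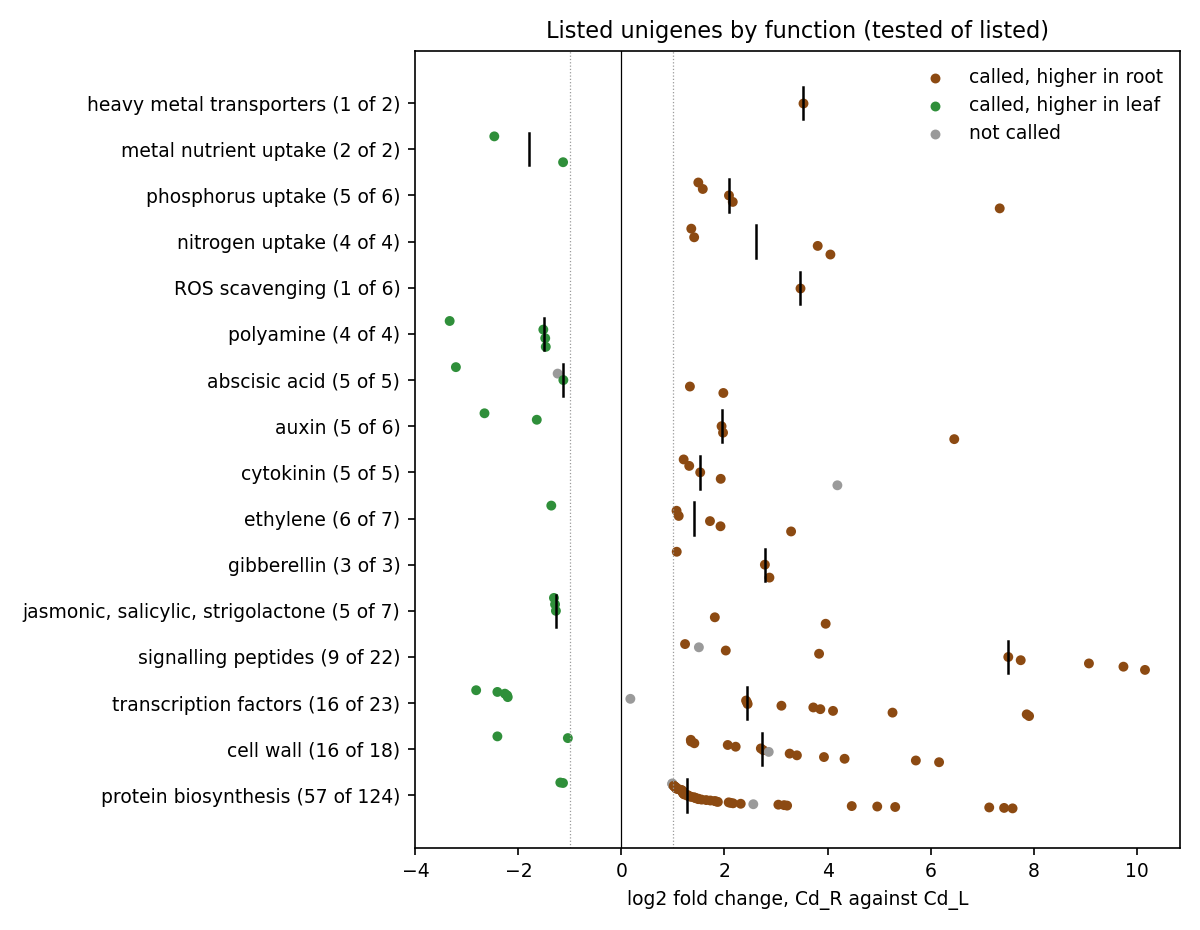
Log2 fold change of Cd_R vs Cd_L (x axis) for the tested unigenes of each gene group, one point per unigene coloured by its call, with a black bar at the median of the fitted values and dotted lines at the 2-fold limit. Polyamine unigenes lie to the left of 0, and nitrogen, phosphorus, cytokinin and gibberellin unigenes lie to the right.

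Protein biosynthesis was the largest group, with 124 unigenes that cover ribosomal proteins, ribosome assembly, translation factors and tRNA charging. Of the 57 tested, 49 were higher in root and 2 in leaf, with a median log2 fold change of 1.28. The calls depended on the tool, the filter and the fold limit, and 67 unigenes were too low to be tested. Without the expression filter edgeR called 60 higher in root and 1 in leaf. DESeq2, with which the study chose the group, called 122 higher in root and 2 in leaf. A test against a 2-fold difference called 20 higher in root and none in leaf. The best protein hits, taken from the study's tables, divided the group. Grasses were the best hit for 56 unigenes, cork oak for 23, other land plants for 23 and organisms outside the land plants for 22.

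The grass-like unigenes behaved evenly. Of 45 tested, 38 were higher in root and 2 in leaf (median 1.201), and their summed levels were 1233, 1508 and 1288 CPM in Cd_R and 611, 627 and 632 CPM in Cd_L. RPL22 (Cluster-14691.32186), a protein of the large ribosomal subunit, had 88.4, 121 and 95.8 CPM in root and 45.5, 40.7 and 48.7 CPM in leaf (1.19 ± 0.20, adjusted p = 0.00301). RPL23a (Cluster-14691.33213), of the same subunit, had 73.9, 104 and 78.4 CPM against 33.7, 37.1 and 43.7 CPM (1.18 ± 0.21, adjusted p = 0.00416), and NSA2 (Cluster-14691.48385), a ribosome maturation factor, had 93.4, 136 and 115 CPM against 38.0, 62.3 and 42.7 CPM (1.28 ± 0.26, adjusted p = 0.00672). A poly(A)-binding protein (Cluster-14691.47536), which joins messenger tails to translation initiation, had 166, 199 and 207 CPM against 104, 89.4 and 92.9 CPM (1.02 ± 0.20, adjusted p = 0.00529). These differences were close to the fold limit, and that of the poly(A)-binding protein fell under it without Cd_L replicate 2 (0.95) or 3 (0.97) or Cd_R replicate 3 (0.97). The leaf-higher pair were CASC3 (Cluster-14691.37585), of the exon junction complex, with 9.58, 10.5 and 8.93 CPM in leaf and 5.28, 2.72 and 5.08 CPM in root (-1.13 ± 0.29, adjusted p = 0.0173), and GatC (Cluster-14691.30119), of a tRNA amidotransferase, with 2.69, 2.15 and 3.69 CPM in leaf and 1.40, 1.43 and 0.859 CPM in root (-1.19 ± 0.35, adjusted p = 0.0298). With scaling by library totals neither passed, and CASC3 was lost without Cd_L replicate 2 (0.0523) or, by size, Cd_R replicate 2 (-0.87), and GatC without Cd_L replicate 1 or 3 or Cd_R replicate 2 or 3 (0.0534 to 0.0961).

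The other best-hit classes were carried by Cd_R replicate 1. The 23 cork oak unigenes summed to 83.9 CPM in that library, 7.09 and 6.72 CPM in the other cadmium roots and 0.519 to 0.909 CPM in cadmium leaf. All 23 had more than 50% of their root level in replicate 1, 19 had no count in leaf, and 4 were tested and called higher in root. Of all unigenes counted only in cadmium roots, 12574 of 16157 also had more than 50% of their root level there. In controls they summed to 3.88, 2.04 and 53.2 CPM in root, so that replicate 3 led there. The unigenes of other land plants summed to 56.6, 10.5 and 12.02 CPM in Cd_R and 2.23 to 2.64 CPM in Cd_L, with 4 of 5 tested called higher in root and 20 of 23 without a count in leaf. Those outside the land plants summed to 36.7, 9.57 and 10.004 CPM in Cd_R and 1.75 to 2.44 CPM in Cd_L, with 3 of 3 tested called higher in root and 20 of 22 without a count in leaf. In control roots the sums were 6.45, 9.13 and 10.7 CPM for other land plants and 4.50, 12.3 and 13.3 CPM outside them. Replicate 3 had no lead there like that in cork oak. Without Cd_R replicate 1, the calls higher in root were 3 for cork oak, 3 for other land plants and 4 for organisms outside them. Cork oak had 1 call without Cd_L replicate 1 or 2, 2 without Cd_L replicate 3 and 6 without Cd_R replicate 2. Other land plants had 7 without Cd_R replicate 2, and organisms outside them had 8 without it and 6 without any leaf library. DESeq2 called 23, 23 and 22. What these sequences contribute to the organ difference was not tested.

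**Figure D5:**
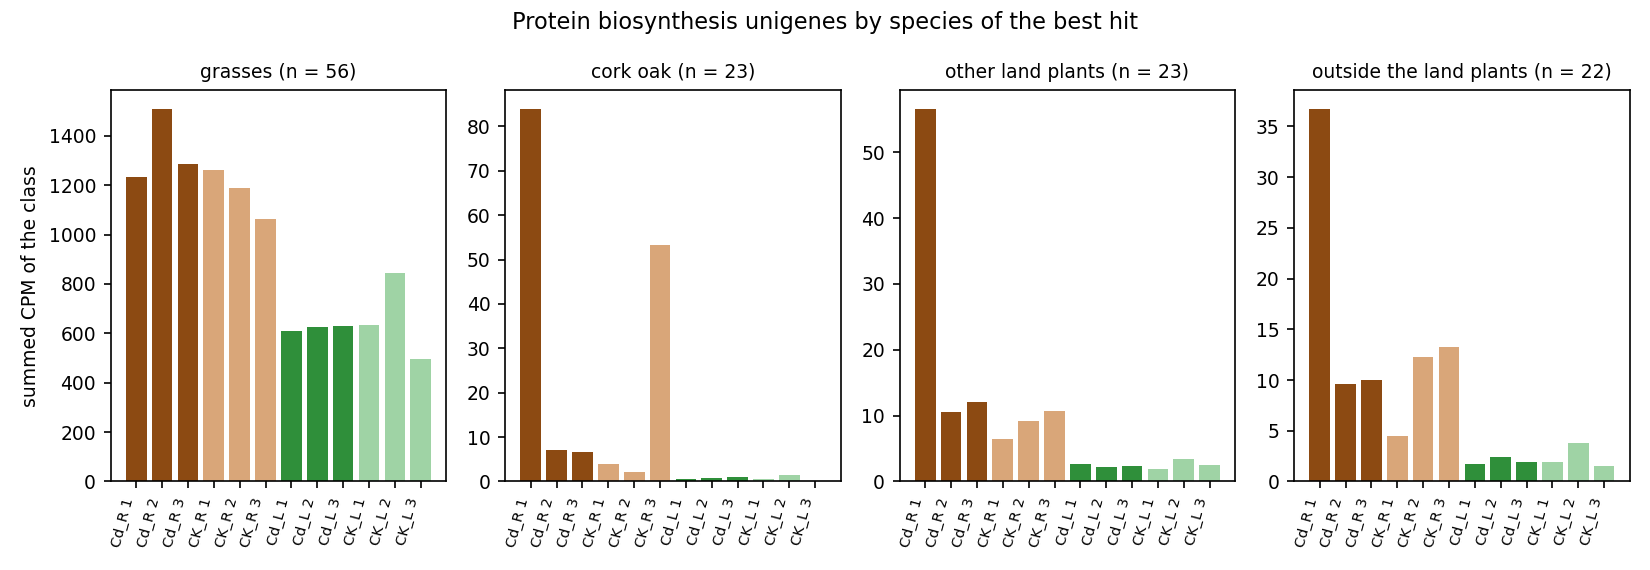
Summed CPM (y axis, a linear scale of its own in each panel) of the protein biosynthesis unigenes in 4 classes of best protein hit, one bar per library (dark for cadmium, light for control, brown for root, green for leaf). Grass-like unigenes stand between 1233 and 1508 CPM in all 3 cadmium roots, whereas cork oak unigenes stand at 83.9 CPM in Cd_R replicate 1 and at 7.09 and 6.72 CPM in the others.

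The unigenes chosen for quantitative RT-PCR gave the following counts. Cluster-14691.10370 (GQ55) had 1.43, 2.01 and 3.21 CPM in root and 0.378, 0.673 and 0.535 CPM in leaf (2.07 ± 0.44, adjusted p = 0.00814). Cluster-14691.31660 (BAE44) had 0.409, 0.215 and 0.0373 CPM in root and 1.51, 2.06 and 1.28 CPM in leaf (-2.82 ± 0.65, adjusted p = 0.0110). Both kept their direction in controls, at 2.20 and -3.41. The reference gene, a cyclin dependent kinase (Cluster-14691.35187), had 21.98, 23.8 and 24.5 CPM in root and 27.8, 29.8 and 33.6 CPM in leaf (-0.36 ± 0.17, adjusted p = 0.113), so that every leaf library was above every root library although the test was not passed, and its sign turned with scaling by library totals (0.18).

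Of the unigenes that the study measured in other comparisons, the xylanase (Cluster-14691.49288) and the ABC transporter (Cluster-14691.76303), of a family that moves compounds across membranes, had the widest gaps. The xylanase, an enzyme type that cleaves the hemicellulose xylan, had 506, 439.7 and 497 CPM in root and 4.48, 3.62 and 3.85 CPM in leaf (6.93 ± 0.27, adjusted p = 4.57e-05). The ABC transporter had 16.7, 19.5 and 18.0 CPM in root and 1 count in leaf (ratio 1150, interval 206 to 45440, adjusted p = 6.20e-05). A unigene annotated Glycine (Cluster-14691.18708) was also higher in root (3.73 ± 0.48, adjusted p = 0.00110). Sucrose 1-fructosyltransferase (Cluster-14691.50971), which starts fructan synthesis, was higher in leaf, at 79.8, 19.6 and 11.5 CPM against 1.67, 2.01 and 4.37 CPM (-3.77 ± 0.82, adjusted p = 0.00848), or -2.55 without Cd_L replicate 1. The glucosyltransferase UGT85A23 (Cluster-14691.61095) was higher in leaf as well (-1.63 ± 0.49, adjusted p = 0.0313), a call lost without Cd_L replicate 1 or 3 or Cd_R replicate 2 or 3 (0.0648 to 0.105).

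Organ identity was checked on the 4 unigenes whose listed terms name photosynthesis, a photosystem or the chloroplast. Of these, 3 were higher in cadmium leaf. Cluster-14691.43873 had 24.3, 106 and 41.5 CPM in leaf and 0.170, 0.107 and 0.0373 CPM in root, Cluster-14691.42884 had 26.8, 84.5 and 38.8 CPM against 0.170, 0.573 and 0.261 CPM, and Cluster-14691.52923 had 37.9, 23.5 and 36.2 CPM against 5.59, 3.83 and 3.43 CPM. The fourth, Cluster-14691.18292, went against its term, with 13.4, 4.44 and 7.91 CPM in root and 0.142, 0.505 and 0.642 CPM in leaf (4.33 ± 0.63, adjusted p = 0.00173). No root marker was available that had not been chosen on this comparison.

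The unigenes that the study listed for treatment within one organ share the cadmium libraries with this comparison, and are given for their levels. Of 107 listed for root, 101 were tested, with 48 higher in root and 20 higher in leaf (median 1.06), and of 55 listed for leaf, 52 were tested, with 16 higher in root and 18 higher in leaf (median 0.26). Leaving out Cd_L replicate 1 changed the calls of the leaf list to 8 and 16, leaving out replicate 2 to 8 and 19, and leaving out replicate 3 to 9 and 17. Among the former, Cluster-14691.49342 had 860.5, 1309 and 1321 CPM in cadmium root and 219, 239 and 336 CPM in cadmium leaf (2.15 ± 0.32, adjusted p = 0.00202). The order of the organs in Cluster-14691.43929 was not the same in treated and control plants. It had 126, 138 and 181 CPM in cadmium leaf and 32.9, 25.1 and 55.8 CPM in cadmium root (-1.95 ± 0.34, adjusted p = 0.00352), and 114, 231 and 74.8 CPM in control leaf and 374, 259 and 286 CPM in control root (1.17, not called). Its interaction did not pass adjustment over all unigenes. For the leaf list, Cluster-14691.45676 had 1561, 1516 and 974 CPM in cadmium leaf and 0.307, 0.717 and 0.709 CPM in cadmium root (-11.17 ± 0.57, adjusted p = 5.72e-05).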

How the data were processed

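Poly(A) RNA from leaf and root was sequenced as paired-end Illumina reads in 12 libraries, 3 per organ and treatment. Per the study's methods, clean reads were assembled de novo with Trinity, clustered with Corset and quantified with RSEM, and the submitters' processing notes add CASAVA 1.8 and DESeq2. The authors deposited 1 table of RSEM expected counts for 126668 unigenes, not normalized, of which 88.6% of values were whole numbers. Libraries held 22157170 to 26033492 counts, and unigenes of close paralogs share reads that RSEM divides between them by estimate. Counts have no molecular identifiers, so intervals cover counting error only. Because no genome is used, a unigene may be part of a transcript and lengths are not used here.

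Expected counts were rounded and tested with edgeR 4.0.16 in R 4.3.3 (quasi-likelihood test, TMM scaling, default expression filter) on the 6 cadmium libraries, without a replicate block. A unigene was called at a Benjamini-Hochberg adjusted p of at most 0.05 over all tested unigenes and a difference of at least 2-fold. Standard errors are the log2 fold change divided by the square root of F. Printed CPM values use the TMM scale of all 12 libraries, whereas fold changes come from the fit on 6. Correlations between libraries use log2 CPM with a prior count of 2. For a group without counts, a bound was set against 3 counts over its libraries, and for 1 to 3 counts the ratio has an exact 95% interval. The script was tested on simulated counts. Control organs were fitted alike, and the interaction was fitted over 12 libraries.

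Gene groups and names came from the study's tables, and the members and lists were chosen with earlier results of these data known. The text names, per group, up to 4 called unigenes per direction by mean CPM, every member of a group of 6 or fewer, the RT-PCR unigenes and uncalled members where 5 or fewer remain. EIN2 was named in addition to this rule. For the larger tables of treatment effects only examples are given. Alternatives were other scalings, filters, tests and fold limits, a replicate block, all libraries in 1 fit, and leaving out each cadmium library (DESeq2 1.42.0 for 1 test). Replicates are 3 biological samples per group.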

Additional observations from a re-analysis of the deposited data

How the results depend on the processing

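The number of unigenes higher in root was 12525 and ranged from 8561 (test against a 2-fold difference) to 18396 (library totals), and the number higher in leaf was 9718 and ranged from 6520 to 11384 (no limit on the fold change). The share of calls that were higher in root was 56.3%, and was 73.3% with library totals, 58.4% with DESeq2, 57.4% with all 12 libraries in one fit and 55.0% with no limit on the fold change, and 55.2% to 56.9% when each library was left out. With the replicate number as a block the calls were 11476 and 9233 (55.4%). Deviations of same-numbered root and leaf libraries correlated at 0.03, -0.15 and 0.07, and those of differently numbered libraries at -0.20 to 0.22. With 3 libraries per organ, these values cannot show whether the numbers pair the samples. The interaction, 0 unigenes with edgeR in each setting run, was 10 with DESeq2.

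Unigenes counted only in cadmium roots numbered 16157, and were 8252 at a summed count of at least 30, 4441 when required in each of the 3 libraries and 3856 to 17477 when each library was left out. Those counted only in cadmium leaves numbered 1526, and were 616 at a summed count of at least 30, 3280 with up to 3 counts allowed in the other organ and 1039 to 2217 when each library was left out. Of the named unigenes' values under the alternatives, 1205 kept direction and call, 255 (60 unigenes) kept direction but lost the call, 9 (2 unigenes) gained it, and the cyclin dependent kinase turned from -0.36 to 0.18 with library totals. Of 95 named and called unigenes, 50 kept the call whichever cadmium library was left out. The cause of these changes was not tested. With 3 libraries per organ, unigenes with few counts were not tested, and a lack of a call at this depth does not show equal levels.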
